A study of Mus musculus with 16 samples.

Results

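The genes described here encode drug and xenobiotic metabolising enzymes of the mouse liver: the cytochromes P450 (Cyp), carboxylesterases (Ces), UDP-glucuronosyltransferases (Ugt), glutathione S-transferases (Gst), sulfotransferases (Sult), aldehyde dehydrogenases (Aldh), flavin monooxygenases (Fmo) and aldehyde oxidases (Aox). Members were chosen by gene symbol alone, leaving out 4 P450 genes of bile acid synthesis (Cyp7a1, Cyp7b1, Cyp8b1 and Cyp27a1). A symbol counted where at least 1 mouse had an N6-methyladenosine (m6A) peak on it, which gave 49 genes of the 7693 with a peak in any mouse. They held 270 of 77183 peaks, in 76 of 17526 separate regions.

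The study asked how m6A in liver messenger RNA differs after a high-fructose diet. The animals were male C57BL/6J mice, 10 to 11 weeks old, and received for 2 weeks either normal diet (ND) or high-fructose diet (HFrD), the latter with 10% of calories from fat, 70% from carbohydrate and 20% from protein. Liver RNA of 4 ND mice (numbered 1, 3, 6 and 7) and 4 HFrD mice (numbered 1, 2, 5 and 7) went through an m6A immunoprecipitation, and each mouse has its own list of peaks. All mice were anaesthetised with chloral hydrate before the liver was taken. Nothing in the labels says that mice with the same number on the different diets were paired.

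Phase I enzymes such as the P450s, carboxylesterases and aldehyde dehydrogenases oxidise or hydrolyse a foreign compound, and phase II enzymes join it to glucuronic acid, sulfate or glutathione so that it can be excreted. Many of these genes lie in clusters of close copies and are expressed mainly in hepatocytes. The m6A mark is placed on adenosine within short consensus sequences, of which the most frequent reads GGACT in DNA letters, and it is known to affect the splicing, translation and decay of a transcript.

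The lists held 8959 to 11517 peaks in ND mice and 8055 to 10093 in HFrD mice, ranges that overlapped. Each peak carried a score (-10 times log10 of its p-value, at least 50 in every list and never above 3100) and a fold enrichment of immunoprecipitated over background signal. The deposited false discovery rate was high throughout. Its lowest value on any enzyme peak was 46.2%, and 7 peaks of all 77183 were under 5%. Read depth and input expression were not analysed here, so a missing peak cannot be told apart from a transcript too scarce to give one, and the error of each single call is unknown.

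The strongest and most recurrent enzyme peaks included those at the stop codons of neighbouring carboxylesterase genes on chromosome 8. Their sequences are shown because the copies resemble each other closely at this site while only some had a peak. The capitals mark GGACT, positions are in mm10, all lie on the minus strand, and the letters are from the GRCm38 reference.
Ces1b, chr8:93056935-93056963: aagtggctttctGGACTgagctcctggct
Ces1c, chr8:93099213-93099241: aagtggctttctGGACTgagctcctggct
Ces1e, chr8:93201440-93201468: aagtggctttctGGACTgaacttctggct
Ces1g, chr8:93302953-93302981: aagtggacttttGGACTgagctcagagcc
Ces1h, chr8:93352060-93352088: aagtgtctttgtGGACTgagctcagggcc
Ces1f, chr8:93256465-93256493: aagtgactttctggacacagtcccttgcc

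Ces1b and Ces1c were identical over these 29 bases and had a peak there in 4 of 4 ND and 4 of 4 HFrD mice. Their stop codon regions were 93.0% identical to each other, so the assignment of reads between this pair is uncertain. Counted from 1 at the 5′ end of the Ces1b window, Ces1e differed by G20A and C23T and had a peak in 1 HFrD mouse. Ces1g and Ces1h kept GGACT, with 7 and 5 differences from Ces1b, and had no peak at this site in any mouse. Ces1f lacked GGACT there and had a peak over the site in 2 HFrD mice, while Ces1a and Ces1d, which also lacked it, had none. Copies with and without a peak were thus found both among those with GGACT and among those without.

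The next windows come from the members that leaned most to ND mice and from the member whose covered length was lower in HFrD mice. Cyp2a5 stands beside Cyp2a4, since the pair cannot be told apart at this site. The Cyp2a4 window lies in a stop codon region found in 1 ND mouse, because the Cyp2a4 region that leaned to ND holds no GGACT.
Cyp2a4 stop codon, chr7:26314714-26314742, plus strand: tgtttcggagaaGGACTggctaggatgga
Cyp2a5 stop codon, chr7:26842889-26842917, plus strand: tgtttcggagaaGGACTggctaggatgga
Ces2b 3′ untranslated region, chr8:104838842-104838870, plus strand: tggatgcttaagGGACTgttggccccaag
Cyp2u1 coding sequence, chr3:131297879-131297907, minus strand: cagcttcgacgaGGACTacctgttctaca
Cyp2u1 coding sequence, chr3:131297951-131297979, minus strand: cagcaaccctcaGGACTtcatagacatgt
Ugt2b37 coding sequence, chr5:87254465-87254493, minus strand: ttttgaatgtgtGGACTtatgagttgtca

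Fewer enzyme genes had a peak in HFrD mice than in ND mice. The number was 24, 31, 29 and 33 of 49 in ND mice 1, 3, 6 and 7, and 24, 25, 26 and 20 in HFrD mice 1, 2, 5 and 7. These are 59.7% ± 7.88 and 48.5% ± 5.37 (SD, n = 4 each), and the ranges of the diets overlapped because ND mouse 1 was as low as HFrD mouse 1. Over all 7693 genes the share was 70.2% in ND mice and 64.5% in HFrD mice, a smaller difference in the same direction. Enzyme peaks made up 0.365% to 0.380% of the list in ND mice and 0.286% to 0.349% in HFrD mice. How often other gene sets of this size differ as much between the diets was not computed. No test was made over the members as a list, because they were chosen with earlier results of these data known.

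**Figure D1:**
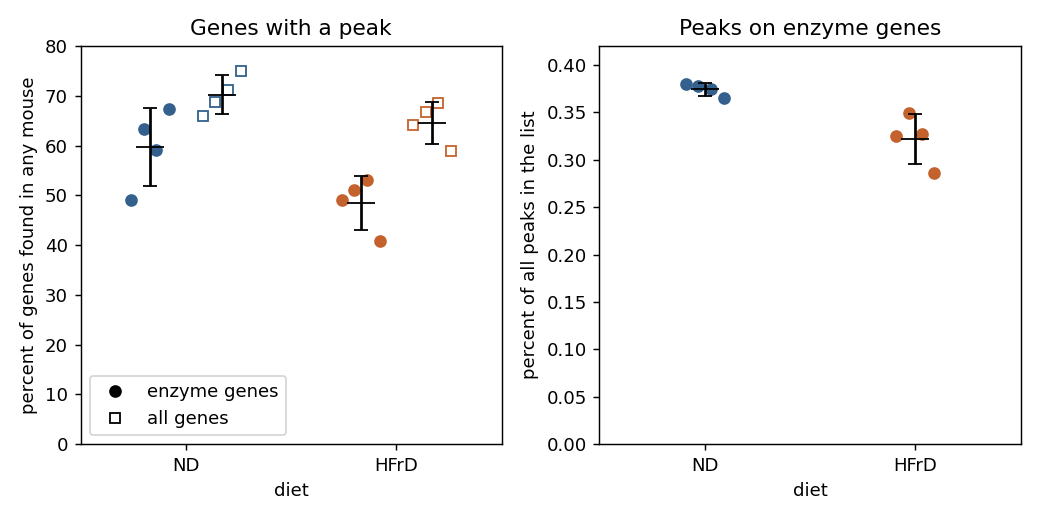
Left, the percent of the 49 enzyme genes (filled circles) and of all 7693 genes (open squares) with a peak in each mouse. Right, the percent of all peaks that lay on enzyme genes. Points are mice and bars are the mean and SD of 4 mice. Enzyme shares were 0.365% to 0.380% in ND mice and 0.286% to 0.349% in HFrD mice.

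By gene, 23 of the 49 were found in more ND than HFrD mice (46.9%, against 31.8% of all genes), 9 in more HFrD mice (18.4%, against 17.7%) and 17 in equal numbers (34.7%, against 50.5%). The median difference was 0 mice both for the enzymes and for all genes. Recurrence was lower than elsewhere, since 11 enzyme genes had a peak in all 8 mice (22.4%, against 39.6% of all genes), and 14 had one in a single mouse (28.6%, against 14.2%). For 10 of these 14 it was an ND mouse, but the same share over all genes was not computed. A gene entered the set by a peak in any mouse. Thus 12 members entered through ND mice alone and 5 through HFrD mice alone. The lean to ND rests partly on such genes, so it is a description and not support for a diet effect. ND lists were also longer, with a mean of 10168 peaks against 9128. The 19 enzyme genes found in 2 to 6 mice were tested by Fisher's exact test. Of these, 0 were fully separated between the diets (background 1.41%). With 4 mice per diet only full separation gives an unadjusted p under 0.05, so 0 passed at that level. The smallest Benjamini-Hochberg adjusted p over all 2839 genes tested by that exact test was 1.

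**Figure D2:**
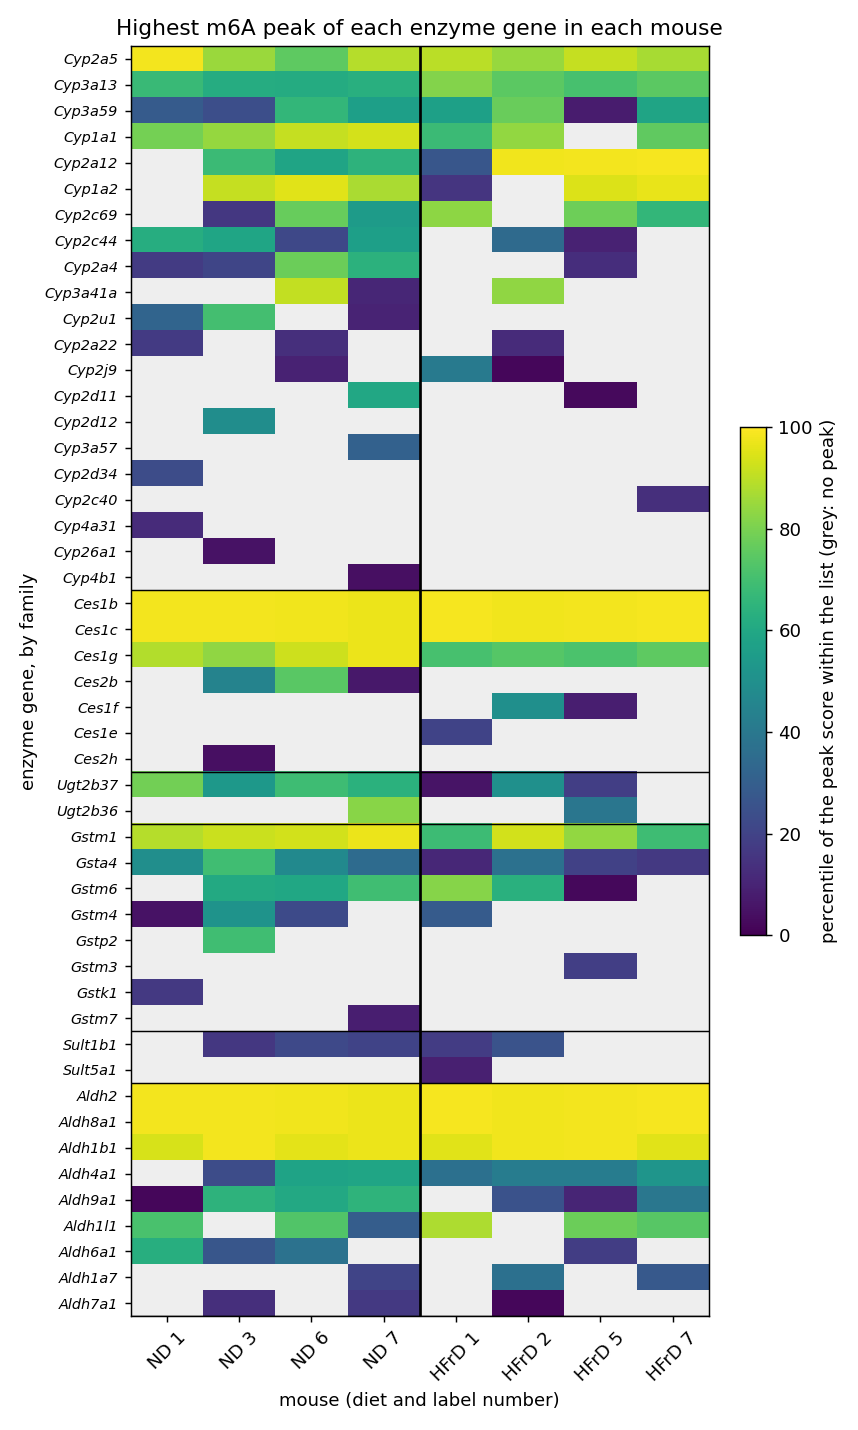
The highest peak of each of the 49 enzyme genes (rows, grouped by family) in each of the 8 mice (columns). Colour gives the percentile of its score within that mouse's own list, and grey means no peak. Ces1b, Ces1c, Aldh2 and Aldh8a1 reached a score of 3100 in all 8 mice, and 14 genes have a single coloured cell.

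The families differed in how many of their genes had a peak. Of the protein-coding genes annotated in each, 42.9% of Aldh (9 of 21), 36.8% of Ces (7 of 19), 36.4% of Gst (8 of 22) and 21.1% of Cyp (20 of 95) were in the lists, but 9.09% of Ugt (2 of 22) and 9.52% of Sult (2 of 21). Fmo, with 7 annotated genes, and Aox, with 4, had none. Over the families 48 of 211 annotated genes had a peak (22.7%), against 32.4% of all annotated protein-coding genes. The remaining member, Cyp2c44, goes by another symbol, Cyp2c23, in the annotation.

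Among the phase I enzymes, Cyp2u1, a P450 that hydroxylates long-chain fatty acids, was the first of 3 members whose number of mice differed by at least 3 between the diets. All 3 leaned to ND, which is 6.12% of the 49 enzyme genes against 2.87% of all genes, and 0 leaned to HFrD, against 0.975%. The Cyp2u1 region, at chr3:131297786-131298421 in the coding sequence, scored 105, 346 and 64.6 in ND mice 1, 3 and 7, and was absent from ND mouse 6 and all 4 HFrD mice. Its fold enrichment was low, at 3.74, 4.14 and 2.71. Both Cyp2u1 windows printed above lie in it.

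Ces2b, a carboxylesterase that hydrolyses esters and lipids, had a single region at chr8:104838270-104840074, in the 3′ untranslated region. It scored 144, 476 and 59.2 in ND mice 3, 6 and 7, with fold enrichments of 9.24, 18.7 and 6.57, and was absent from ND mouse 1 and all 4 HFrD mice. The peaks spanned 1764, 1180 and 1130 bases. The paper lists Ces2b among genes with both less m6A and less mRNA in HFrD mice. Whether the lower mRNA bears on the missing peaks was not tested. With 3 against 0 mice, Fisher's exact test gave p = 0.143 for Ces2b and for Cyp2u1 alike.

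Cyp2a4, a steroid hydroxylase of the mouse, had a peak in 4 of 4 ND mice and 1 of 4 HFrD mice (Fisher's exact test, p = 0.143). Of its 3 regions, the one at chr7:26312767-26312954 in the coding sequence was found in 3 ND and 0 HFrD mice, with fold enrichments of 9.70, 17.9 and 6.02. The HFrD peak, in mouse 5, was weak, with a score of 66.4. The 3 regions were 97.7% to 99.5% identical to Cyp2a5, which had a peak in all 8 mice, so the assignment of reads between these genes is uncertain. Ces2b and Cyp2u1 had no such match over at least 80% of their regions.

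Across regions the lean was similar to that of genes. Of the 76 enzyme regions, 40 were found in more ND mice (52.6%, against 38.3% of all regions) and 17 in more HFrD mice (22.4%, against 23.4%). Regions also entered by a peak in any mouse, and 30 of the 76 were found in 1 mouse. The 3 that differed by at least 3 mice toward ND (3.95%, background 2.86%) were those of Cyp2u1, Ces2b and Cyp2a4 just given. Toward HFrD 0 did so (background 0.907%). Of 29 regions tested by Fisher's exact test, 0 were fully separated (background 1.08%).

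The P450 genes of the Cyp1 family, which are induced through the aryl hydrocarbon receptor, had strong peaks with unequal calls. Cyp1a1 covered 511, 836, 835 and 802 bases in ND mice and 576, 602, 0 and 559 in HFrD mice 1, 2, 5 and 7. Its fold enrichment was 20.6, 34.4, 48.8 and 56.0 in ND mice and 18.3, 26.7 and 19.9 in the 3 HFrD mice with a peak. The diets overlapped, since ND mouse 1 lay below 3 HFrD mice in length, and the covered length did not pass (exact permutation test, two-sided, p = 0.114).

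Cyp1a2, which oxidises caffeine and aromatic amines, was found in 3 mice of each diet. Its main region, at chr9:57681702-57682537, scored 1372, 2750 and 1334 in ND mice 3, 6 and 7, and 68.0, 2304 and 2568 in HFrD mice 1, 5 and 7. HFrD mouse 1 stood far below the others in score, but its fold enrichment of 7.95 was within their range of 6.76 to 9.01. Score and fold enrichment thus gave different orders for the same peak.

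Cyp2a12 showed the same at its stop codon, at chr7:27036465-27036815. Its score was 316 and 89.2 in ND mice 3 and 6 and 85.2, 3100, 3100 and 3100 in HFrD mice, while its fold enrichment was 13.1 and 12.5 against 17.2, 12.8, 19.2 and 15.6. The second region of Cyp2a12, in the coding sequence, was found in 2 ND and 0 HFrD mice. It was 97.7% identical to Cyp2a22, and the stop codon region was 92.6% identical to it. The assignment of reads between these genes is therefore uncertain.

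Cyp3a13, of the subfamily that oxidises many drugs, had 1 start codon region in all 8 mice, and it ranked higher in HFrD mice. Its scores were 325, 254, 272 and 338 in ND mice and 522, 462, 347 and 378 in HFrD mice, with no overlap. The percentile within the list was 63.6 ± 2.96 and 75.5 ± 4.47 (SD, n = 4 each). A two-sided exact permutation test gave p = 0.0286, the smallest that 4 against 4 allows (adjusted p = 0.463). It was the only one of the 11 tested enzyme genes to rank higher at that unadjusted level (background 1.25%). Its exact p was 0.0571 without HFrD mouse 1, and also 0.0571 with all lists shortened to the 8055 highest-scoring peaks. Ranked by fold enrichment instead of score, it gave p = 0.114 by the same exact test.

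Cyp3a59 and Cyp3a41a had 4 regions each. The start codon region of Cyp3a59 was found in all 8 mice, with fold enrichments of 4.06 to 6.38 in ND mice and 4.73 to 10.6 in HFrD mice, and the other 3 in 1 or 2 mice each. That start codon region was 99.3% identical to Cyp3a25. The other 3 were 96.1% to 97.5% identical to Cyp3a25 or Cyp3a57, so the assignment of reads to Cyp3a59 is uncertain. Cyp3a41a was found in ND mice 6 and 7 and HFrD mouse 2. None of its 4 regions recurred in a second mouse, and 2 of them lie on exons annotated as Cyp3a41b. The sequence at Cyp3a41a, chr5:145694562-145694590, minus strand, and at Cyp3a41b, chr5:145559177-145559205, was the same and is shown once. Cyp3a11, another P450 of this subfamily, holds the same 29 bases at chr5:145855122-145855150 and had no peak there in any mouse.
Cyp3a41a and Cyp3a41b: ttaagcagacaaGGACTtcttcaaccaga

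The Cyp2c genes oxidise drugs and arachidonic acid. Cyp2c44 was found in 4 ND and 2 HFrD mice at its start codon, with fold enrichments of 5.45, 7.11, 3.99 and 5.23 against 5.17 and 4.80. Cyp2c69 was found in 3 mice of each diet and Cyp2c40 in 1 HFrD mouse. The Cyp2c69 region shared by those 6 mice was 98.6% identical to Cyp2c40. Cyp26a1, which degrades retinoic acid, and Cyp4a31, of a fatty acid hydroxylase subfamily, were each found in 1 ND mouse, at scores of 55.4 and 65.7.

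Among the carboxylesterases, Ces1g, which hydrolyses lipid esters in the liver, ranked lower in HFrD mice. Its region of 73 bases, at chr8:93305817-93305889, scored 1044, 711, 1812 and 3100 in ND mice and 311, 444, 360 and 383 in HFrD mice, so that every ND mouse lay above every HFrD mouse. The percentile within the list was 90.3 ± 5.91 and 72.9 ± 1.97 (SD, n = 4 each). A two-sided exact permutation test gave p = 0.0286 (adjusted p = 0.463). It was 1 of 11 enzyme genes at that unadjusted level in this direction (background 4.92%). By fold enrichment the difference was smaller, with 10.9 to 15.97 in ND mice and 7.77 to 11.9 in HFrD mice, and the exact test on its percentile gave p = 0.257. The region was 95.8% identical to Ces1d.

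Ces1b and Ces1c scored 3100, the highest possible, in all 8 mice. The fold enrichment of Ces1b was 22.7 to 33.3 in ND mice and 20.3 to 38.7 in HFrD mice, and that of the stop codon region of Ces1c was 15.7 to 22.9 and 11.7 to 20.6, so the diets overlapped for both. Ces1f was found in HFrD mice 2 and 5, at scores of 182 and 60.3, and in 0 ND mice. It was the only enzyme gene that leaned to HFrD by 2 mice, while 3 leaned to ND by 2 (Aldh6a1, Cyp2c44 and Gstm4). The shares over all genes at that difference were not computed.

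The aldehyde dehydrogenases held 3 of the 11 genes found in all mice. Aldh2, the mitochondrial enzyme that clears acetaldehyde, had a region in its 3′ untranslated region that scored 3100 in all 8 mice, with fold enrichments of 14.2 to 22.2 in ND mice and 15.5 to 25.4 in HFrD mice. A second region, at its start codon, was found in 3 ND mice and 1 HFrD mouse (Fisher's exact test, p = 0.486). Aldh8a1 scored 3100 at its stop codon in all 8 mice. Aldh1b1 scored 2020 to 3100 in ND mice and 1990 to 3100 in HFrD mice. Aldh6a1, of valine breakdown, was found in 3 ND mice and 1 HFrD mouse.

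Among the phase II enzymes, Ugt2b37 had a shorter covered length in HFrD mice. Its region, at chr5:87254047-87254804 in the coding sequence, was covered over 758, 758, 758 and 644 bases in ND mice and over 399, 420, 441 and 0 bases in HFrD mice. No HFrD mouse reached the lowest ND mouse. The means were 729.5 ± 57.0 and 315 ± 211 bases (SD, n = 4 each). A two-sided exact permutation test gave p = 0.0286 (adjusted p = 0.918). It was the only one of 25 enzyme genes tested to be shorter at that unadjusted level (background 2.40%), and 0 were longer (background 0.708%). The region was 93.4% identical to Ugt2b38.

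**Figure D3:**
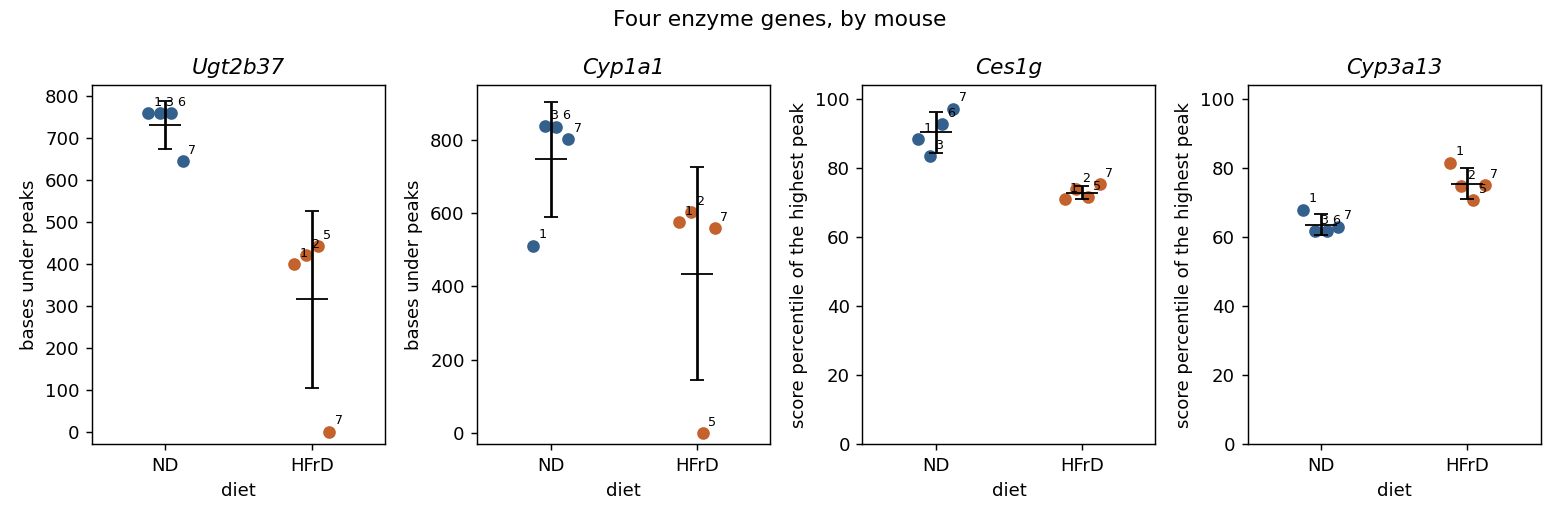
Bases under peaks of Ugt2b37 and Cyp1a1, and the within-list score percentile of the highest peak of Ces1g and Cyp3a13, in each mouse. Points carry the mouse number, and bars are the mean and SD of 4 mice. Ugt2b37 lies at 644 to 758 bases in ND mice and 0 to 441 in HFrD mice.

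Of the glutathione S-transferases, Gsta4, which conjugates the lipid peroxidation product 4-hydroxynonenal, had 5 regions, more than any other enzyme gene. The first was found in all 8 mice and a pair of others in 4 ND and 2 HFrD mice each. Its highest score was 167, 335, 167 and 130 in ND mice and 61.6, 124, 75.9 and 69.0 in HFrD mice. Score levels differed between lists, with 309 to 608 peaks of any gene at the top score in ND mice and 202 to 377 in HFrD mice. Within the lists the Gsta4 percentiles overlapped, at 35.0 to 69.5 and 11.2 to 37.3 (exact permutation test, two-sided, p = 0.0571, adjusted p = 0.541). Gstm1 was found in all 8 mice at its start codon, at percentiles of 88.8 to 97.1 and 68.5 to 93.1 (exact permutation p = 0.114). Gstm4 was found in 3 ND mice and 1 HFrD mouse. Sult1b1, which sulfates phenols and thyroid hormone, was found in 3 ND and 2 HFrD mice, at scores of 70.9 to 91.0. With lists of equal length the direction turned, to 50 percent of mice more in HFrD.

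Sequence identity between copies touched many of the less recurrent calls. A region was at least 95% identical to another gene over at least 80% of its length in 26 of 76 cases, on 15 genes. This held for 17 of the 30 regions found in 1 mouse and for 3 of the 13 found in all 8. The limit missed close copies among the latter. The stop codon regions of Ces1b and Ces1c, 93.0% identical, fell below it. The Cyp2a5 region had no match of that length, although the Cyp2a4 stop codon region was 97.7% identical to Cyp2a5. The share over all regions was not computed. Whether shared reads set these calls was not tested. By coordinates, peaks listed under Pih1d1 in 8 mice also lay on Aldh16a1, and peaks listed under Egln2 in 6 mice also lay on Cyp2t4.

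Enzyme peaks lay at the start codon and stop codon more often than other peaks. The start codon segment (400 nucleotides centred on the codon) held 36.5% ± 2.90 of enzyme peaks in ND mice and 36.4% ± 2.89 in HFrD mice (SD, n = 4 each), against 24.5% to 26.4% and 24.1% to 26.2% of other peaks. The stop codon segment held 19.3% ± 6.69 and 23.7% ± 3.35, against 13.1% and 13.0%, with ND mouse 7 below the other peaks at 9.76%. The coding sequence held 39.5% ± 6.27 and 35.6% ± 3.87, against 48.1% and 49.2%, and the 3′ untranslated region 4.70% and 4.32%, against 10.3% and 9.90%. In all 8 mice the start codon share of enzyme peaks was above that of other peaks. The difference between the diets was within the spread between mice for each segment. Of the peaks on these genes, 203 of 270 (75.2%, against 65.8% of all peaks) filled an exon end to end, so their ends and length were those of the exon.

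**Figure D4:**
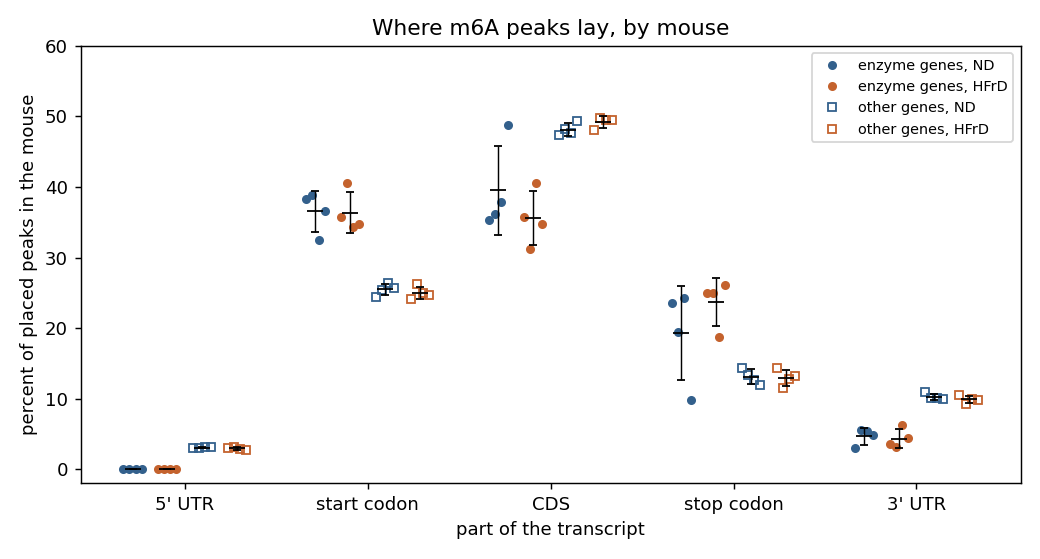
The percent of placed peaks in each part of the transcript, for enzyme genes (filled) and other genes (open), in each mouse. Bars are the mean and SD of 4 mice. The start codon segment holds 32.4% to 40.6% of enzyme peaks and 24.1% to 26.4% of other peaks.

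GGACT on the strand of the gene was found in 35.3% ± 6.21 of enzyme peaks in ND mice and 30.6% ± 7.15 in HFrD mice, against 30.1% ± 2.54 and 29.4% ± 0.657 of other peaks of the same widths and 37.6% of other peaks of any width in both diets. Of the 76 regions, 27 held it (35.5%, against 35.4% of all 16250 regions with a known strand), including 5 of the 13 found in all 8 mice and 12 of the 30 found in 1 mouse. Recurrent regions without it included those of Ces1g, Cyp3a13, Gstm1 and Gsta4.

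The genes around these enzymes were counted from lists that were also drawn up with earlier results known. Of 19 regulators of drug metabolism, which include the receptors that sense foreign compounds, 18 had a peak, 6 of them more often in ND, 2 more often in HFrD and 10 equally. Of 16 genes of electron and cofactor supply, 13 had a peak, 3 in more ND mice and 3 in more HFrD mice. Of 30 other phase I and II enzymes, 14 had a peak, 5 in more ND and 3 in more HFrD mice. The median difference was 0 mice in these 3 lists, as over all genes. After adjustment 0 of their genes passed Fisher's exact test. With 4 mice per diet, 0 of all 2839 genes tested passed, so this count says nothing about these lists. Of 15 hepatocyte markers 8 had a peak, 2 more often in ND mice and 3 more often in HFrD mice, and defining ones such as Alb, Cps1 and Tat had none. Of 11 Kupffer cell and macrophage markers 8 had a peak, 5 more often in ND mice and 2 more often in HFrD mice, with a median difference of -1 mouse (over all genes, 31.8% and 17.7% leaned to ND and to HFrD). Those that leaned to ND were Clec4f, Csf1r, Cd5l, C1qb and C1qc, and those that leaned to HFrD were Vsig4 and Marco. Marco, a scavenger receptor, was found in 0 ND and 4 HFrD mice, a full separation seen in 1.41% of all genes tested. The part of cell composition in the enzyme results was not tested.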

How the data were processed

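Liver m6A immunoprecipitates and inputs of 8 mice (16 libraries) were sequenced (paired ends of 150 bp). By the notes of the submitters, the authors trimmed reads with cutadapt 1.9.3 and aligned them to mm10 with HISAT2 2.0.4, then called peaks with MACS in each mouse and kept those on mRNA exons. For MACS, neither version nor settings were found in the sources read. The deposited score is -10 times log10 of a p-value, the deposited fold enrichment is a ratio, and the deposited false discovery rate is a percent. Only these per-mouse lists were used. Starts were counted from 0 in the files and 1 was added.

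Members and lists were chosen with earlier results of these data known. A gene was present in a mouse whose list held any peak of it, and regions were peaks merged by at least 1 bp. Presence was tested by Fisher's exact test (genes or regions in 2 to 6 lists), and covered length (at least 4 lists) and within-list score percentile (all 8 lists) by exact permutation over 70 splits, two-sided, adjusted by Benjamini-Hochberg over all genes tested. Labels call the mice separate samples. Tests were tried on simulated data. Transcripts were from RefSeq GRCm38 and GENCODE, and copies were found with BLASTN 2.17.0. Python 3.11.15, pandas 2.3.3, numpy 2.4.6 and scipy 1.17.1 were used. Alternatives were fold enrichment of at least 3 or 5, scores of at least 100, equal list lengths, leaving out each mouse, mice 1 and 7 only, and 1 alternative definition of most measures.

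Genes named were those whose number of mice differed by 2 or more, the 10 top-ranked genes found in all mice, the most recurrent of each family, those at an unadjusted p under 0.05, those the study names that were in the lists (10), and the 3 with most regions. Others, such as Cyp1a1, Cyp2a12 and the copies used for comparison, were picked after their values were seen.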

Additional observations from a re-analysis of the deposited data

Results flagged for a closer look

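Within groups of 4 mice, 6 values lay apart from the other 3 by Dixon's criterion, over 44 groups with any range, where chance flags about 1 group in 20 for continuous values. That rate cannot be applied to these lengths, which are bounded by exons or 0. In the groups of ND mouse 7 for Ugt2b37 and of HFrD mouse 5 for Cyp2a4 the other 3 mice were tied, so any differing value is flagged. For Ugt2b37 bases under peaks these were 644 in ND mouse 7 and 0 in HFrD mouse 7. For Cyp1a1 they were 511 in ND mouse 1 and 0 in HFrD mouse 5. For Cyp2a4 it was 142 bases in HFrD mouse 5, the only HFrD mouse with a peak on it. The stop codon share of enzyme peaks was 18.75% in HFrD mouse 5, the lowest of its diet.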

How the results depend on the processing

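Of 154 recomputed summary values, 129 stayed within 1.5 times the main count or within 1 SD. Of 405 recomputed differences of named genes, 386 were counted as kept, by a loose rule. A presence difference was kept if it moved by up to 25 percent of mice. Ces1f thus counted as kept when it went from 50 to 25 at fold enrichment of at least 5. Tested differences were kept if direction and side of 0.05 were unchanged. Fully separated genes numbered 0, but 1 at fold enrichment of at least 5 and 1 at equal list lengths of 8055 peaks (Cyp2a4 both times), 2 when 3 against 0 mice sufficed (Ces2b and Cyp2u1), and 0 to 1 on leaving out a mouse (Ces2b without ND mouse 1, Cyp2u1 without ND mouse 6, Cyp2a4 without HFrD mouse 5). Fully separated regions numbered 1 at scores of at least 100 (Gsta4) and 0 to 1 on leaving out a mouse (Ces2b, Cyp2a4 or Cyp2u1 without ND mouse 1, 3 or 6). Covered length gave 2 genes under 0.05 at fold enrichment of at least 5 and at equal lengths (Cyp2a4 and Ugt2b37), 2 at scores of at least 100 (Gsta4 and Ugt2b37) and 1 to 3 on leaving out a mouse. Peak rank gave 1 at fold enrichment of at least 5 and at equal lengths (Ces1g, without Cyp3a13), 0 by fold enrichment percentile, and 1 to 3 on leaving out a mouse. Genes found in a larger share of HFrD mice numbered 8 to 15 on leaving out a mouse, with 15 without ND mouse 7 and 14 without HFrD mouse 2. For all these alternatives the share over all genes or regions was not computed. Whether the counts exceed that share is therefore unknown. Sult1b1 reversed to 50 percent of mice toward HFrD at equal lengths. The cause was not tested.

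Mice 1 and 7 carry a number in both diets. As a replicate block of these pairs alone, 3 genes were fully separated (Cyp2a4, Cyp2c44 and Cyp2u1), 5 regions were fully separated and 10 regions were found in a larger share of HFrD mice. With 2 mice per diet full separation is easier to reach. The share over all genes and regions was not computed for this block, so its counts cannot be compared with a background. Their deviations from the group means in covered length correlated by 0.0971 for mice 1 and -0.0562 for mice 7 over 5368 genes, and the labels do not pair them. An exact test over the sign flips of these 2 pairs gave 0 genes under 0.05 for covered length and 0 for peak rank, since its smallest p is 0.5, and so says nothing on stability. In the pairs HFrD minus ND was -501.5 bases for Ugt2b37, -19.6 percentile points for Ces1g and 12.7 for Cyp3a13.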
